A study of Mus musculus with 13 samples.

Results

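The subject is the baseline transcriptome of the control tumours of a mouse model of Sonic Hedgehog medulloblastoma, a tumour of the cerebellum. The 5 libraries are those whose labels name them Wt and give a primary medulloblastoma of genotype SmoM2 overexpression, 5 of the 13 in the series, and they were chosen by these labels alone. They are called control libraries 3 to 7 after their replicate numbers. All carry SmoM2 overexpression, an activated form of the Hedgehog signal transducer Smoothened, with Kmt2d (a histone H3 lysine 4 methyltransferase) not deleted. The animals were 6 to 16 weeks old, the tumours were macro-dissected, dissociated with papain and sorted for GFP+ cells, and pellets of 1 to 5 M cells (M for 1000000) entered a TruSeq RNA preparation. Libraries 3 and 7 come from the left hemisphere and libraries 4, 5 and 6 from the right hemisphere. Neither the labels nor the series text name the promoter behind SmoM2 and GFP or say whether each library is a separate mouse. Each tumour carries an engineered driver, so none stands for normal cerebellum, and no normal tissue is compared.

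Cerebellar granule cell precursors divide in the outer layer of the young cerebellum under Sonic Hedgehog from Purkinje cells. The ligand relieves Smoothened from inhibition by the receptor Patched, after which Gli transcription factors switch on targets such as Gli1, Ptch1, cyclin D genes and Mycn. Precursors express Atoh1 and then leave the cell cycle, migrate and become glutamatergic granule neurons. Activated Smoothened signals without the ligand.

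Levels below are CPM, read counts scaled to a library total of 1000000, after TMM scaling, given in the order of libraries 3, 4, 5, 6 and 7. Between genes they are given as CPM per kilobase of exon, scaled to a sum of 1000000 on average over the 5 libraries, called TPM here. A mean is followed by ± SD over n = 5 libraries. The libraries held 23.5 to 37.5 M counts, and 3 counts in 1 library correspond to 0.0803 to 0.129 CPM. Library 3 stood apart. It had a count for 40295 genes against 24131 to 25785 in the others. Its 1772 olfactory and vomeronasal receptor genes, which belong to sensory neurons of the nose, summed to 1679 CPM against 9.90 to 16.6 before scaling. Relative to the mean of the others, its short genes were high and its long genes low, with a median log2 difference of 0.44 in the shortest 25% of genes by exon length and -0.51 in the longest 25%. Results are therefore given with and without library 3 where it bears on them. Xist, transcribed from the inactive X chromosome of females, was at 1.03, 0.472, 492, 328 and 404 CPM, and the Y-linked Ddx3y at 62.4, 109, 0, 0 and 0 CPM. Libraries 3 and 4 carried Y-linked transcripts and libraries 5, 6 and 7 carried Xist, so both sexes are in the group by these markers.

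In these tumours 13073 genes reached 1 CPM in all 5 libraries, and 13256 did in the 4 without library 3. A share of 50% of all counts came from 1319 to 1552 genes per library, and the 20 most abundant genes of each library held 4.08% to 5.50%. Among the most abundant nuclear protein-coding genes per length were those of a tubulin, histone variants and cytoskeletal regulators. Tuba1a, the alpha-tubulin of growing neurons, was at 8535, 5196, 3467, 4563 and 5643 TPM. The histone variant gene H3f3b was at 4232 ± 790.2 TPM, and Ptma, which encodes the acidic nuclear protein prothymosin alpha, at 4209.7 ± 965 TPM. Nnat, an imprinted neuronal gene, averaged 3945 ± 893 TPM, the actin-binding Tmsb4x 3884 ± 1264 TPM and Marcksl1, a membrane and cytoskeleton protein, 3661 ± 738 TPM. The microtubule destabiliser Stmn1 stood at 2659 ± 672 TPM and the histone variant H2afz at 2553 ± 753 TPM. Tuba1a was highest in library 3 and lowest in library 5, a 2.46-fold range, while H3f3b and Ptma had ranges of 1.65 and 1.71.

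The other members of the 20 highest were translation factors and housekeeping genes (Eef1a1 at 3472 ± 693 TPM, Eif5a, Ubb, Calm2, Ckb, Hsp90ab1) and mitochondrial transcripts. Among the latter mt-Cytb was at 5209.5 ± 601 TPM, mt-Rnr2 at 4841 ± 803 TPM, mt-Nd1 at 3608 ± 296 TPM and mt-Co1 at 3488 ± 336 TPM. All mitochondrial genes together held 0.667% to 0.876% of counts. Gm23935 ranked first by this measure with an annotated exon of 57 bases, a length too short for this scaling to be sound. Gm10800 entered the 20 through a single library, with 3812, 10.7, 24, 0.800 and 0.857 CPM, and without library 3 its rank fell from 7 to 4281. By CPM, which favours long transcripts, the nuclear factor I gene Nfib, a regulator of granule neuron maturation, joined the top 20 at 2382 ± 407 CPM. Tubb5 (2019 ± 331 CPM), the RNA-binding genes Hnrnpa2b1 (1936 ± 200.4 CPM), Hnrnpu and Hnrnpk, the translation regulator Eif4g2, the ATP synthase subunit Atp5b, the actin regulator Cfl1, Marcks and the isomerase Ppia were also there. The clone-named RP23-81C12.1 (2865 ± 1086 CPM) and the ribosomal RNA gene Rn18s-rs5 (4536, 1418, 2149, 1949.8 and 1865 CPM) completed the list, the latter with its highest value in library 3. Of the 20 highest by TPM, 18 were also there without library 3.

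**Figure D1:**
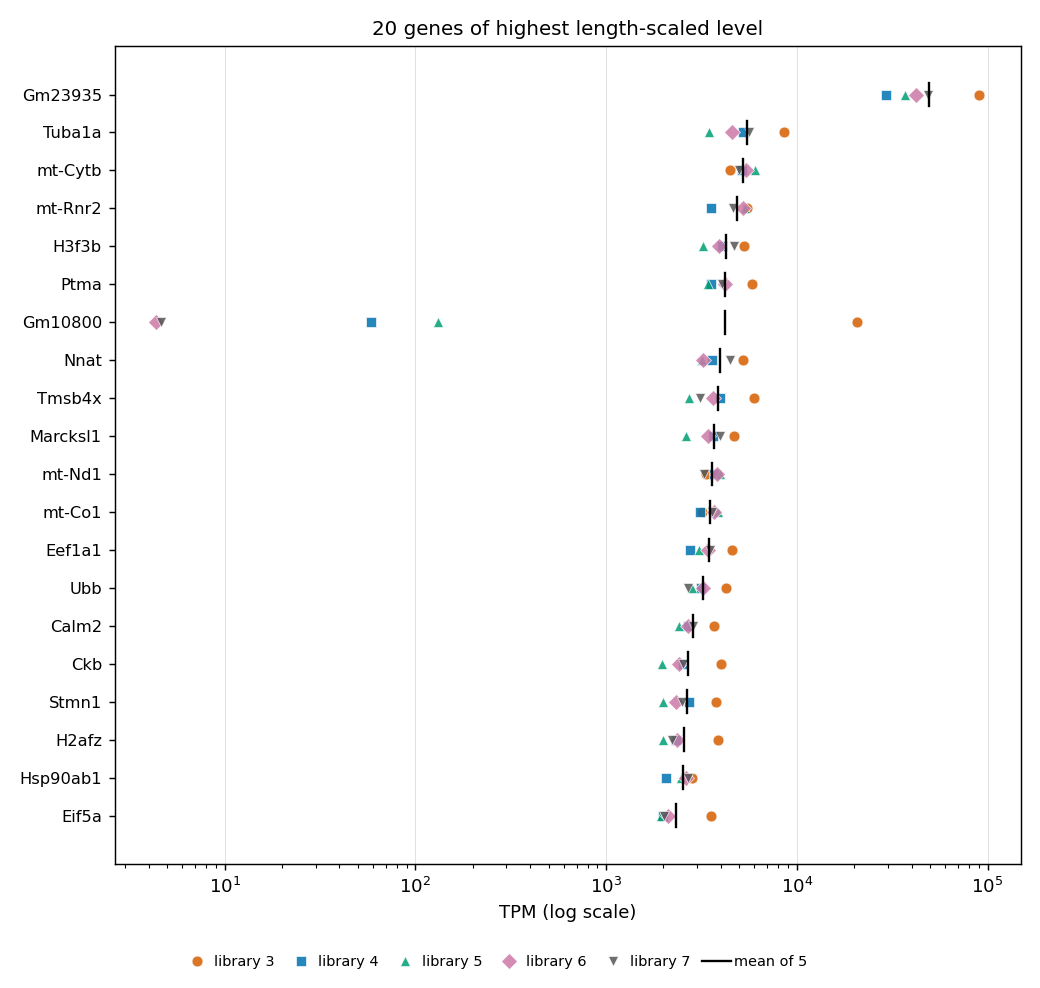
TPM (log axis) of the 20 genes of highest mean length-scaled level, 1 symbol per library and a bar at the mean of 5. Gm10800 is high in library 3 only, and the symbols of the other genes lie close together, with library 3 on the right for most nuclear genes.

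The lineage of these cells was read from 29 transcription factors and markers of granule cell precursors, which is the cell type given in the labels. Their median level was 104 TPM against 26 over the 12956 genes with at least 1 CPM and a length, and 119 against 28.1 without library 3. Atoh1, the factor that defines the precursor state, was at 369, 307, 432, 376 and 313 CPM, or 609 ± 87.3 TPM, rank 177 of all genes with a length. Its highest and lowest libraries differed by 1.41-fold. Insm1, a zinc finger factor of dividing neuronal progenitors, was the highest of the list at 915 ± 161 TPM, with 602, 903, 696, 813 and 932 CPM. Barhl1, a homeobox gene that acts downstream of Atoh1, was at 673 ± 129 TPM and Barhl2 at 130 ± 33 TPM. Atoh1 and Insm1 were thus high in all 5 libraries, and 20 of the 29 members had a mean at or above the median of those 12956 genes.

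The Zic family, zinc finger factors of cerebellar granule cells, was led by Zic5 (176 ± 30.1 TPM), Zic1 (152 ± 24.7 TPM) and Zic4 (115 ± 16.9 TPM), with Zic2 at 33.3 ± 9.71 TPM. Sox4 (329 ± 46.9 TPM) exceeded Sox11 (133 ± 15.3 TPM), both SoxC factors of immature neurons, and the stem cell factor Sox2 was at 29.5 ± 7.39 TPM and its relative Sox3 at 2.05 ± 1.18 TPM. Lhx1 averaged 228 ± 46 TPM, Nhlh2 148 ± 27 TPM, Nhlh1 80.5 ± 10.1 TPM, Meis1 104 ± 21.2 TPM, Pax6 29 ± 3.83 TPM, Tcf4 153 ± 23.8 TPM and Etv1 17.3 ± 4.70 TPM. Of the engrailed pair of hindbrain patterning genes, En2 was present (90.3, 174, 88.9, 145 and 182 CPM) and En1 was close to off (1.21, 0.295, 0.116, 1.22 and 2.01 CPM). Pde1c, a phosphodiesterase gene, had the largest spread among the members of at least 5 CPM, with 111, 212, 134, 223 and 325 CPM, highest in library 7 and lowest in library 3. Mfap4, a matrix protein gene, was highest in library 5 (69.5, 62.1, 133, 48.4 and 66.5 CPM). Eya1 (1.85 ± 0.410 TPM) and Rfx4 (2.26 ± 1.59 TPM) were low. Of the 29, 4 averaged under 1 CPM, En1 and Gbx2 among them, and Gbx2 had 0 counts in every library. Meis2 had counts in library 3 above all (9.17, 0, 0.0387, 0 and 0 CPM).

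The Hedgehog pathway was expressed at each of its levels except the ligand. Shh itself was near 0, with 0.344, 0, 0.116, 0 and 0 CPM. Of the receptors, Ptch1, the Patched receptor that is also a Gli target, was at 262, 385, 671, 455 and 348 CPM. It was highest in library 5 and lowest in library 3, a 2.56-fold range. Smo, the signal transducer, was at 212, 252, 334, 283 and 304 CPM, a count that does not separate the endogenous gene from any part of the SmoM2 transgene that aligns to it. The co-receptors Boc (173 ± 43.5 TPM) and Gas1 (111 ± 8.03 TPM) were present, Gas1 with the smallest spread of the list (SD 0.10 on the log2 scale), and the further co-receptor gene Cdon was at 0.657 ± 0.471 TPM. Hhip, which binds the ligand at the cell surface, was at 20.6, 36.7, 65.3, 53.6 and 46.8 CPM.

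Downstream, Gli1, the activator that is induced by the pathway, was at 72, 104, 179, 136 and 105 CPM. Gli2, the main activator, was at 36.9 ± 11.7 TPM and Gli3, largely a repressor, at 4.41 ± 1.29 TPM. Sufu, which holds Gli proteins in the cytoplasm, had 90.8, 217, 181, 208 and 182 CPM, with library 3 below all others. The Gli adaptor Spop was at 166 ± 26 TPM, the kinase genes Prkaca and Gsk3b, whose products phosphorylate Gli proteins, at 320.2 ± 46.1 TPM and 77.4 ± 15.5 TPM, and the ciliary genes Evc, Evc2, Kif7, Iqce and Gpr161 between 5.83 ± 0.717 TPM and 21.3 ± 5.80 TPM. Disp1, needed to release the ligand, was at 5.96 ± 2.17 TPM. Lrp2, a large endocytic receptor gene, had counts in library 3 above all (12.1, 0.118, 0.193, 0 and 0 CPM). Over the 19 genes of this list of at least 5 CPM, the median SD on the log2 scale was 0.428, and 0.263 without library 3. Over all genes of at least 5 CPM it was 0.295 and 0.181. The median of the 22 members was 29.1 TPM, close to the background median, and of the 21 members of at least 1 CPM, 11 (52.4%) had their highest value among libraries 4 to 7 in library 5, against 32.2% of all 15670 genes of at least 1 CPM.

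The 22 Hedgehog target genes, 4 of which also stand in the list above, had a median of 92.5 TPM. Sfrp1, which encodes a secreted Wnt antagonist, was the highest member at 1158 ± 162 TPM, with 1371, 1270.2, 1206, 1699.6 and 1501 CPM. Mycn, the Myc family member that drives precursor division, was at 630 ± 120.5 TPM, with 468, 710.2, 616, 636 and 458 CPM. Sox18 followed at 604 ± 102 TPM and Ccnd2, the cyclin D of granule cell precursors, at 508 ± 89 TPM, with 1409.6, 1072, 1152, 1348 and 1665 CPM. Ccnd1 stood at 265 ± 33 TPM, Zbtb18 at 259 ± 78.7 TPM, the polycomb gene Bmi1 at 189.5 ± 40.4 TPM, the chemokine receptor Cxcr4 at 106 ± 24.4 TPM and the mitotic factor Foxm1 at 99.3 ± 27.4 TPM. Mycn was lowest in libraries 3 and 7 and Ccnd2 was highest in library 7, so these genes were not highest in the same library.

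Among the lower targets were Ntrk3 (35 ± 4.12 TPM), Gas2 (32 ± 5.06 TPM), Plekhg2 (14.1 ± 3.93 TPM), Bcl2 (8.35 ± 1.31 TPM), Nkx2-2 (3.15 ± 1.87 TPM) and Tnfrsf19 (3.09 ± 0.814 TPM). Igf2, an imprinted growth factor gene, was the most spread member of at least 5 CPM and the single one of the list past the limit for wide spread used below, with 3.19, 19.1, 7.27, 1.54 and 0.455 CPM, high in library 4. Foxf1 was the one member under 1 CPM on average (0.215, 0, 0, 0 and 2.54 CPM), and library 7 held nearly all of it.

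The proliferation genes of these tumours were high. All 36 genes of the G1/S transition and DNA replication were at or above 1 CPM, with a median of 104 TPM, and 33 of them were at or above the background median. Rrm2, a subunit of the enzyme that makes deoxynucleotides, was the highest at 516 ± 103 TPM, followed by the sliding clamp Pcna at 457 ± 123 TPM and the replicative helicase subunit Mcm7 at 455 ± 63.5 TPM. Mcm6, a further helicase subunit, was at 469.9, 529, 440, 645 and 623 CPM. E2f8, a repressive E2F factor, had the largest spread (24.4, 53.2, 32.7, 58 and 45.3 CPM, SD 0.51). The median SD of the list was 0.243 on the log2 scale and 0.149 without library 3, against 0.295 and 0.181 over all 11259 and 11178 genes of at least 5 CPM. Among libraries 4 to 7, 25 of the 36 were highest in library 6 (69.4% against 19.5% of all genes).

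All 34 genes of G2/M and mitosis were likewise above 1 CPM, with a median of 138 TPM, and 33 lay at or above the background median. Cdc20, an activator of the anaphase-promoting complex, was at 384, 311, 324, 349 and 392 CPM, its ubiquitin-conjugating partner Ube2c at 431 ± 80.8 TPM, and cyclin B2 (Ccnb2) at 357 ± 56.3 TPM with 175, 131, 125, 154 and 176 CPM. The kinase Cdk1, partner of the B cyclins, was at 332, 233, 233, 250.3 and 247 CPM, and Mki67, the proliferation antigen, at 308, 487, 516, 611 and 595 CPM. Aurka, a mitotic kinase, was among the most even at 172, 161, 174, 177 and 183 CPM (SD 0.07). Ect2, which controls cytokinesis, was the most spread of the list (SD 0.57), with 80, 197, 134, 204 and 192 CPM, and library 3 gave the low value. Without library 3, 14 of the 34 (41.2%) were highest in library 6 and 14 in library 7, against 19.5% and 24.5% of all genes.

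Promoter sequence is shown for 3 of these genes because both groups are known to share short promoter motifs, E2F sites in replication genes and CCAAT boxes with the cell cycle homology region (CHR) in mitotic genes. The windows are the 150 bases before the RefSeq start on build GRCm38.p6, written 5′ to 3′ on the gene's strand, with matches of the motif or motifs given below for that gene, on either strand, in capitals. Matches of the other motifs are left in lower case. That of Mcm6 is chr1:128359706-128359855 on the minus strand, that of Ccnb2 chr9:70421555-70421704 on the minus strand and that of Cdk1 chr10:69352913-69353062 on the minus strand.
Mcm6: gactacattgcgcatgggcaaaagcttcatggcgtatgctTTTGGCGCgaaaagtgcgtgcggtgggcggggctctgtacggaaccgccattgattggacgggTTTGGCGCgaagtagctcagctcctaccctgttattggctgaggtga
Ccnb2: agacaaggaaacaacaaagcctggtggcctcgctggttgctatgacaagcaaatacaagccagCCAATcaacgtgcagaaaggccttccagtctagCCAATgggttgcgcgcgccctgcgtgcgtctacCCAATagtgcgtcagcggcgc
Cdk1: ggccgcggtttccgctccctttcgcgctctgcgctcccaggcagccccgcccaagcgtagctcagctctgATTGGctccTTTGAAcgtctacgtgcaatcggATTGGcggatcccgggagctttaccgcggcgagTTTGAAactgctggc
In Mcm6 the capitals mark TTTGGCGC (E2F), which begins 110 and 47 bases before the start. In Ccnb2 they mark CCAAT, at 87, 54 and 21 bases, and in Cdk1 they mark CCAAT on the other strand (printed as ATTGG) at 80 and 48 bases and the CHR core TTTGAA at 71 and 15 bases. Over the 250 bases before the start, TTTCCCGC or TTTGGCGC was found in 6 of 29 replication genes that have a RefSeq promoter (20.7%), against 1.51% of 27025 genes. CCAAT was found in 22 of 27 mitotic genes (81.5% against 37.5%), TTTGAA in 10 of 27 (37% against 18.3%) and both together in the same 10 (6.45% of all genes hold both). The Gli motif GACCACCCA was in this window of 0 of 12 Hedgehog targets with a promoter and of 0.255% of all genes, which says only that these letters are not in this window. Matches are letters, not binding sites.

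Among the regulators of G1, Cdk4, the kinase partner of D cyclins, was at 1207 ± 272 TPM, more than the D cyclins themselves (Ccnd2 508 ± 89 TPM, Ccnd1 265 ± 33 TPM, Ccnd3 36.4 ± 4.49 TPM). Cdk6 stood at 106 ± 17 TPM. Of the inhibitors, Cdkn2d (239.6 ± 50.8 TPM) and Cdkn2c (146 ± 21.1 TPM) were the highest, Cdkn1b was at 54.5 ± 9.06 TPM, and Cdkn2a, the locus of the p16 and p19 tumour suppressors, was the most spread member of the list, with 9.17, 1.36, 2.36, 2.34 and 3.37 CPM. Library 3 gave the high value of Cdkn2a and also of Cdkn1a (145, 56.7, 53.7, 50.2 and 64.1 CPM). In the Myc family all 11 genes were above 1 CPM: after Mycn, Mycl was at 269 ± 26.4 TPM and Myc at 185 ± 61.2 TPM. Myc was the most spread of them (181, 118, 190.3, 134 and 78 CPM), lowest in library 7. Trp53 was at 256 ± 26.1 TPM and its targets Bax and Btg2 at 286 ± 109 TPM and 199 ± 45.3 TPM. The most spread of the 18 genes of p53 and its targets with at least 5 CPM was Phlda3 (50.5, 16.8, 26.8, 11.2 and 14.8 CPM), and 2 of the 18 (Fas and Perp) averaged under 1 CPM.

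Genes of early granule neuron differentiation were expressed beside the proliferation genes. All 28 were above 1 CPM, with a median of 125 TPM. Tubb3, the neuronal beta-tubulin, was at 755, 702, 357, 648 and 786 CPM and Stmn3, a neuronal stathmin, at 1063 ± 404 TPM. Neurod1, a factor of post-mitotic and late precursor cells, was at 760 ± 228 TPM, with 461, 881, 512, 551 and 481 CPM, highest in library 4. Neurod2, which comes later, was the most spread of the list (4.91, 12.5, 15.8, 6.24 and 17.4 CPM, SD 0.78). Cntn2, an adhesion protein of cells leaving the cycle, was at 231, 774, 431, 724 and 754 CPM, with library 3 low. The levels of Neurod1 and Atoh1 came from bulk RNA, which cannot place them in the same or in different cells.

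Mature granule neuron and synaptic genes were mostly low: their median was 10.9 TPM, and 12 of 30 were at or above the background median. The general synaptic vesicle and release genes Vamp2 (211 ± 35.9 TPM), Snap25 (131 ± 29.5 TPM) and Syn1 (91.4 ± 28.6 TPM) were the highest. Gabra6, the GABA receptor subunit that marks mature granule neurons, was the most spread, with 1.94, 8.90, 0.387, 0.512 and 26.9 CPM. The vesicular glutamate transporter of mature granule neurons, Slc17a7, was at 0.861, 13.5, 2.32, 1.09 and 22.8 CPM, and the granule neuron gene Cbln3 at 3.75, 18.5, 3.71, 3.74 and 38 CPM. The earlier transporter gene Slc17a6 was higher throughout (46.2, 152, 113, 100.4 and 201 CPM). For Gabra6, Slc17a7 and Cbln3 library 7 was highest and library 4 second. Grin2c, a further gene of the list, had another order (2.80, 4.60, 20.8, 1.12 and 13.9 CPM), with library 5 highest and library 7 second. Among libraries 4 to 7, 15 of the 30 were highest in library 7, 9 in library 4, 6 in library 5 and 0 in library 6. The shares of all genes were 24.5%, 23.8%, 32.2% and 19.5% for libraries 7, 4, 5 and 6, so that of library 4 (30%) was near its background. In sorted bulk cells, more cells of a type and more RNA per cell cannot be told apart, here and for every cell type below.

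**Figure D2:**
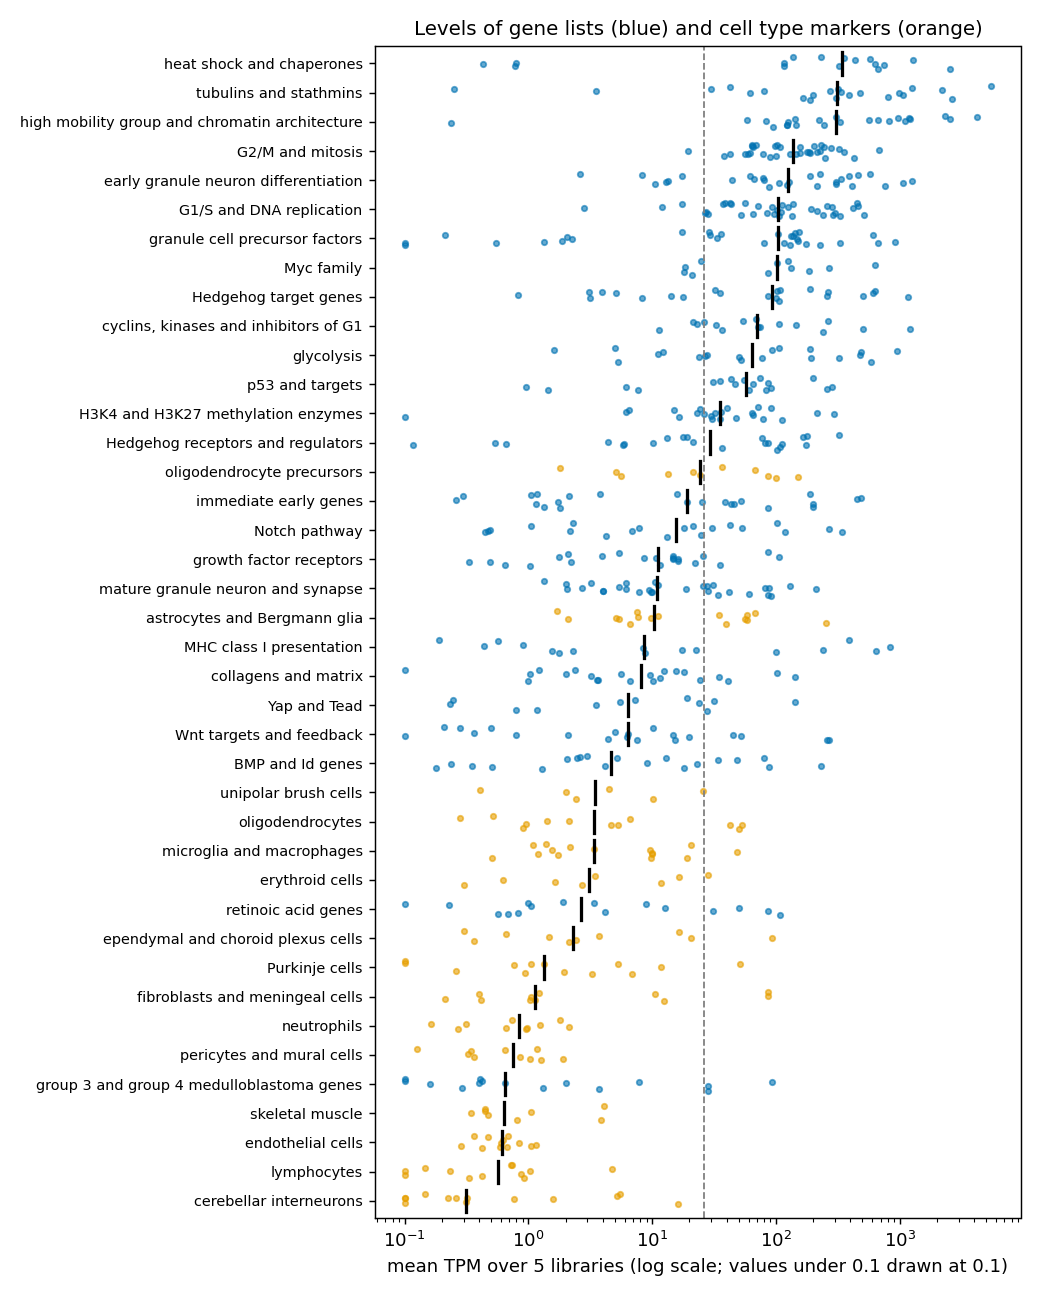
Mean TPM over 5 libraries (log axis) of each member of 40 gene lists, with a black bar at each list's median and a dashed line at the median of all genes of at least 1 CPM (26 TPM). Chaperone, tubulin, chromatin, cell cycle and early neuron lists lie to the right of the line and most markers of other cell types to the left.

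Chaperone, cytoskeletal and chromatin genes had the highest list medians. The median was 341 TPM for 16 heat shock and chaperone genes, led by Hsp90ab1 (2543 ± 297 TPM), Hspa8 (1292 ± 168 TPM) and the chaperonin subunit Cct5 (746 ± 115 TPM). The stress-inducible members Hspa1a (0, 0.324, 0.348, 0.640 and 0.455 CPM), Hspa1b (0, 0.413, 0.542, 0.832 and 1.23 CPM) and Hspb1 averaged under 1 CPM. Hspa1a and Hspa1b are near-identical copies, and reads dropped between copies make their low values uncertain. Hspe1 was the most spread of the chaperone genes above 5 CPM (159, 74.8, 93.8, 79.6 and 65.6 CPM). Tubulins and stathmins had a median of 312 TPM, with Tubb5 (2181 ± 357 TPM) after Tuba1a and Stmn1, and Tuba4a the most spread (0.861, 4.13, 0.619, 0.864 and 11.8 CPM). Of the 23 chromatin architecture genes (median 307 TPM), H1f0, a linker histone, was next at 2303 ± 533 TPM after H3f3b and H2afz. Hmgn2, a nucleosome-binding protein gene, was the most spread of them (1558, 1108, 458, 667 and 1266 CPM), low in libraries 5 and 6. Hmgn2 has many processed copies in the genome, so its count is uncertain. Chd7, a chromatin remodeller gene of granule cell precursors, was at 225 ± 46.2 TPM.

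In glycolysis Gapdh (959 ± 269 TPM), Pkm (586 ± 69.4 TPM) and Eno1 (483 ± 87.2 TPM) led. Hk2, the hexokinase of dividing precursors, was at 92.8 ± 20.6 TPM and Hk1 at 12.2 ± 6.10 TPM. Aldoc (1.12, 18.5, 9.48, 8.83 and 12.4 CPM) was the most spread, with library 3 low, and Eno2, the neuronal enolase, was highest in library 7 (2.93, 7.61, 2.51, 1.86 and 19.8 CPM). Among the genes of histone H3 lysine 4 and 27 methylation and demethylation, Dpy30 (293 ± 95 TPM), Kdm1a (213 ± 26.7 TPM) and Wdr5 (111 ± 8.08 TPM) were the highest. The undeleted Kmt2d was at 88.4, 104, 178, 128 and 140.2 CPM, with Kmt2c at 32.1 ± 6.77 TPM and Kmt2a at 35.8 ± 7.79 TPM on the length-scaled measure, where Kmt2d was at 23 ± 6.25 TPM. The X-linked demethylase Kdm6a was the most spread member (22.4, 66.9, 78.2, 107 and 80.8 CPM, SD 0.86), with library 3 low and an SD of 0.28 without it. Ezh2, which places the lysine 27 mark, was at 91.9 ± 16.7 TPM.

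Signalling genes other than Hedgehog were lower as lists, with single genes standing out. In the Notch list (median 15.6 TPM) the effector gene Hey1 (343 ± 39.4 TPM), the Hes family gene Hes6 (266 ± 73.5 TPM) and the glycosyltransferase gene Rfng (119 ± 10.8 TPM) led. The effector gene Hes1 was the most spread above 5 CPM (12.7, 2.39, 23.6, 13.2 and 8.44 CPM), and Notch3 had counts mainly in library 3 (4.48, 0.236, 0.0387, 0.640 and 0.161 CPM). Notch1 was at 2.16 ± 1.21 TPM and Notch2 at 6.87 ± 2.43 TPM. In the Wnt list (median 6.32 TPM) Ctnnb1, which encodes beta-catenin, was at 268 ± 58.8 TPM, the feedback gene Nkd1 at 258 ± 45.9 TPM and Apc at 51.8 ± 15 TPM, while the common target Axin2 was at 6.41 ± 1.71 TPM. The secreted inhibitor Wif1 was the most spread of that list (33.7, 12.8, 72.2, 29.2 and 3.72 CPM), highest in library 5 and lowest in library 7. Lef1, Dkk1, Dkk2, Dkk4, Tcf7 and Notum were under 1 CPM, with Dkk1 at 0 counts. In the BMP and Id list the highest were Id2 (230 ± 53.4 TPM), Id1 (88.3 ± 44.8 TPM) and Smad1 (80.3 ± 19.6 TPM), and Bmp5 was the most spread (2.07, 95.7, 3.02, 10.6 and 18 CPM), high in library 4.

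Tead2 (144 ± 18.9 TPM), Lats1 (31.3 ± 9.64 TPM) and Amotl2 (27.5 ± 6.58 TPM) were the highest of the Yap and Tead list, Yap1 itself was at 3.50 ± 1.75 TPM, and the Yap target Cyr61 was high in library 5 (4.74, 2.03, 36.2, 3.90 and 6.53 CPM). Growth factor receptor genes were led by Cxcr4, Pdgfra (86.9 ± 39.1 TPM) and Ntrk3, with Igf1r at 16.1 ± 4.05 TPM and its ligand gene Igf1 at 0.489 ± 0.711 TPM. Retinoic acid genes had a median of 2.65 TPM, with Rxrb (107 ± 17.4 TPM), Aldh1a2 (20.5, 52.3, 58.6, 79.1 and 62 CPM) and Crabp1 (50.6 ± 19.2 TPM) the highest, and Aldh1a1 the most spread (4.26, 2.65, 4.26, 0.992 and 0.830 CPM). Matrix genes had a median of 8.14 TPM and the highest were Mfap4, the brevican gene Bcan (103 ± 42.2 TPM) and Col4a1 (41 ± 11.9 TPM). Col5a1 was the most spread of those above 5 CPM (6.29, 2.03, 19.8, 6.88 and 7.20 CPM), Tnc was more so at a lower level (6.89, 1.62, 0.309, 1.95 and 0.0536 CPM), and 10 of 21 matrix genes (47.6%) were highest in library 5 among libraries 4 to 7, against 32.2% of all genes.

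Immediate early genes, which many stimuli switch on within minutes, had a median SD of 0.393 over the 13 of at least 5 CPM, against 0.295 over all genes. Without library 3 the median SD was 0.392, against 0.181 over all genes. With all 5 libraries, 1 of the 13 (Fos) had an SD above 1. Jun (484 ± 129 TPM), Ier2 (455 ± 189.7 TPM) and Egr1 (199.9 ± 121 TPM) were the highest, and Egr1 was at 348, 95.1, 463, 166 and 175 CPM. Fos, the most spread of those above 5 CPM, was at 55.6, 10.8, 66.5, 13.8 and 25.5 CPM, and the lower Fosb at 2.76, 0.206, 10, 0.896 and 1.82 CPM. Libraries 3 and 5 were high and library 4 low for Egr1 and Fos, and 14 of 19 genes of the list were highest in library 5 among libraries 4 to 7 (73.7% against 32.2% of all genes). Genes of antigen presentation by MHC class I were led by Calr (833 ± 163 TPM), Pdia3 (646 ± 155 TPM) and Canx (391 ± 74.2 TPM), general folding factors of the endoplasmic reticulum, with B2m at 238 ± 41.6 TPM, H2-D1 at 101 ± 34.8 TPM and H2-K1 at 8.80 ± 4.72 TPM. H2-T23 was the most spread above 5 CPM (7.84, 2.71, 4.68, 11.2 and 7.28 CPM), and the regulator gene Nlrc5 had counts mainly in library 3 (5.90, 0.206, 0.271, 0.256 and 0.0268 CPM). Of 15 genes known from group 3 and group 4 medulloblastoma, Otx2 (151, 124, 76.7, 116 and 81.9 CPM) and Lhx2 (28 ± 4.45 TPM) were among those above the background median and 6, among them Crx and Nrl, were under 1 CPM. Lhx9 had the largest SD, through library 3 (4.69, 0, 0.542, 0.0320 and 0 CPM).

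Markers of other cell types were low in the sorted cells with some exceptions. Endothelial markers summed to 52.1, 3.15, 5.73, 2.91 and 3.99 CPM over 12 genes, and 7 of them, Cldn5 included, averaged under 1 CPM. Their highest members were Pecam1 (8.96, 0.206, 0.0774, 0.416 and 0.295 CPM), Eng (2.41, 0.796, 0.774, 0.672 and 1.23 CPM) and Vwf (17, 0.766, 0.309, 0.0320 and 0.777 CPM). Lymphocyte markers summed to 21.9, 1.56, 3.17, 2.72 and 2.17 CPM, neutrophil markers to 14.2, 1.62, 1.08, 2.43 and 1.18 CPM, mural cell markers to 25.9, 3.95, 5.96, 3.49 and 5.62 CPM and skeletal muscle genes to 21.7, 3.21, 2.63, 2.98 and 3.08 CPM. In each of these 5 lists the sum was highest in library 3, the library with the high receptor counts, and their medians lay between 0.569 and 0.843 TPM with it and between 0.0115 and 0.214 TPM without it. The named members were Cd79a (3.92, 0.796, 1.70, 1.95 and 1.18 CPM), Cd3g, Trac and Ms4a1 (6.20, 0, 0, 0 and 0 CPM) for lymphocytes, Retnlg (1.77, 0, 0, 0 and 0 CPM), Mpo and S100a9 for neutrophils, Kcnj8, Abcc9 (5.81, 1.41, 3.37, 1.76 and 2.38 CPM), Higd1b and Myh11 (7.41, 0.383, 0.658, 0.192 and 0.402 CPM) for mural cells, and Mylpf, Acta1 and Myh4 (8.78, 0, 0, 0 and 0 CPM) for muscle.

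Glial lists had higher medians than the endothelial, mural, lymphocyte, neutrophil and muscle lists, but none reached the background median of 26 TPM. The median was 10.4 TPM for astrocyte and Bergmann glia genes, and 7 of the 16 were at or above the background median. For oligodendrocyte genes the median was 3.40 TPM. Single members were higher. Sox9, a factor of glia and neural progenitors, was at 256 ± 35.2 TPM, the glutamate transporter Slc1a3 at 67.1 ± 16.6 TPM and Gfap at 65.1, 72.4, 56.6, 66.2 and 84.3 CPM, while the astrocyte genes Aldh1l1 (1.70 ± 0.603 TPM) and Hopx (5.35 ± 2.42 TPM) were low. Aldoc and Gja1 (6.07, 38.5, 32, 12 and 22 CPM) had an SD above 1, which fell to 0.46 and 0.72 without library 3, where both were low. Oligodendrocyte precursor genes had a median of 24.2 TPM, close to the background, with Olig1 (141, 75.4, 128, 58.7 and 46.7 CPM), Bcas1 (99.6 ± 13.1 TPM) and Pdgfra highest. Enpp6 (14.1, 21.5, 5.96, 0.896 and 7.37 CPM) was the most spread, and Sox10 was at 29.5, 27.1, 30.1, 7.58 and 8.49 CPM. Cnp (93.5, 87.9, 35.9, 19.6 and 34 CPM) and Mbp (42.4 ± 12 TPM) were among the highest myelin genes, with Myrf, a regulator of myelin genes, the most spread (7.75, 4.83, 2.48, 0.384 and 1.47 CPM). Among libraries 4 to 7 all 8 myelin genes of at least 1 CPM were highest in library 4, against 23.8% of all genes, and the 12 genes of the list summed to 340.4, 408, 164, 144 and 211 CPM.

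Microglial genes had the largest median SD of the lists with members of at least 5 CPM, 1.12 on the log2 scale over 5 such genes. The 15 genes summed to 46.5, 50.9, 56.3, 135 and 13.2 CPM, and 12 of 12 genes of at least 1 CPM were highest in library 6 among libraries 4 to 7, against 19.5% of all genes. Lyz2, a lysozyme of macrophages, was at 8.40, 15.5, 18, 44.5 and 1.90 CPM, the complement genes C1qa and C1qb at 3.40, 5.42, 5.07, 12.7 and 1.21 CPM and 5.08, 5.66, 3.87, 14.1 and 2.41 CPM, and the receptor Csf1r at 3.32, 3.63, 5.80, 13.4 and 0.964 CPM. Ptprc, a leukocyte gene, had the largest SD (9.73, 0, 1.20, 2.02 and 0 CPM). P2ry12, Tmem119 and Aif1 averaged under 1 CPM. Whether these transcripts come from other cells in the sort was not tested.

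Markers of neuronal types other than granule cells were mostly low, with list medians of 0.310 TPM for interneurons, 1.35 TPM for Purkinje cells and 3.45 TPM for unipolar brush cells. The interneuron and inhibitory neuron genes Slc32a1 and Ptf1a had 0 counts in all libraries, Gad1 was at 1.03, 0.590, 0.658, 0.0640 and 0.402 CPM and Gad2 at 5.34, 0.619, 0.193, 0 and 0.107 CPM, and 9 of 13 interneuron markers were under 1 CPM, with Kit (16.2 ± 5.65 TPM) and Gjd2 among the highest. Of the 13 Purkinje cell markers 4 were under 1 CPM, and the 13 summed to 134 to 158 CPM. Pcp2 was at 0, 0.118, 0, 0.0320 and 0.0803 CPM and Calb1 at 4.56, 0.737, 0.580, 0.0640 and 1.18 CPM, while Pvalb was at 16.3, 23.3, 13.6, 8.06 and 12.9 CPM, Foxp2 at 11.7 ± 2.46 TPM and Rora at 6.84 ± 0.632 TPM. Calb2 (8.27, 13, 11.8, 4.80 and 24.3 CPM) and Nmb were among the highest of the unipolar brush cell list, of which 1 of 6 was under 1 CPM. Haemoglobin genes were low (Hba-a1 4, 4.72, 0.696, 0.864 and 3.13 CPM, Hbb-bs 6.37, 5.19, 1.04, 0.704 and 4.15 CPM). Hba-a1 has a near-identical copy, so its count is uncertain. Fibroblast genes were led by Pdgfra, Aldh1a2 and Col3a1 (18.7, 21.5, 87.9, 27.2 and 13.8 CPM), the last highest in library 5, and Col1a1 was at 7.19, 0.236, 0.619, 0.128 and 1.23 CPM. Ependymal and choroid plexus genes were led by Otx2, Clic6 (7.15, 10.1, 26.9, 21.4 and 24.3 CPM) and Ttr, the transthyretin gene of choroid plexus, which was high in library 6 (3.44, 3.30, 1.66, 25.7 and 0 CPM).

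**Figure D3:**
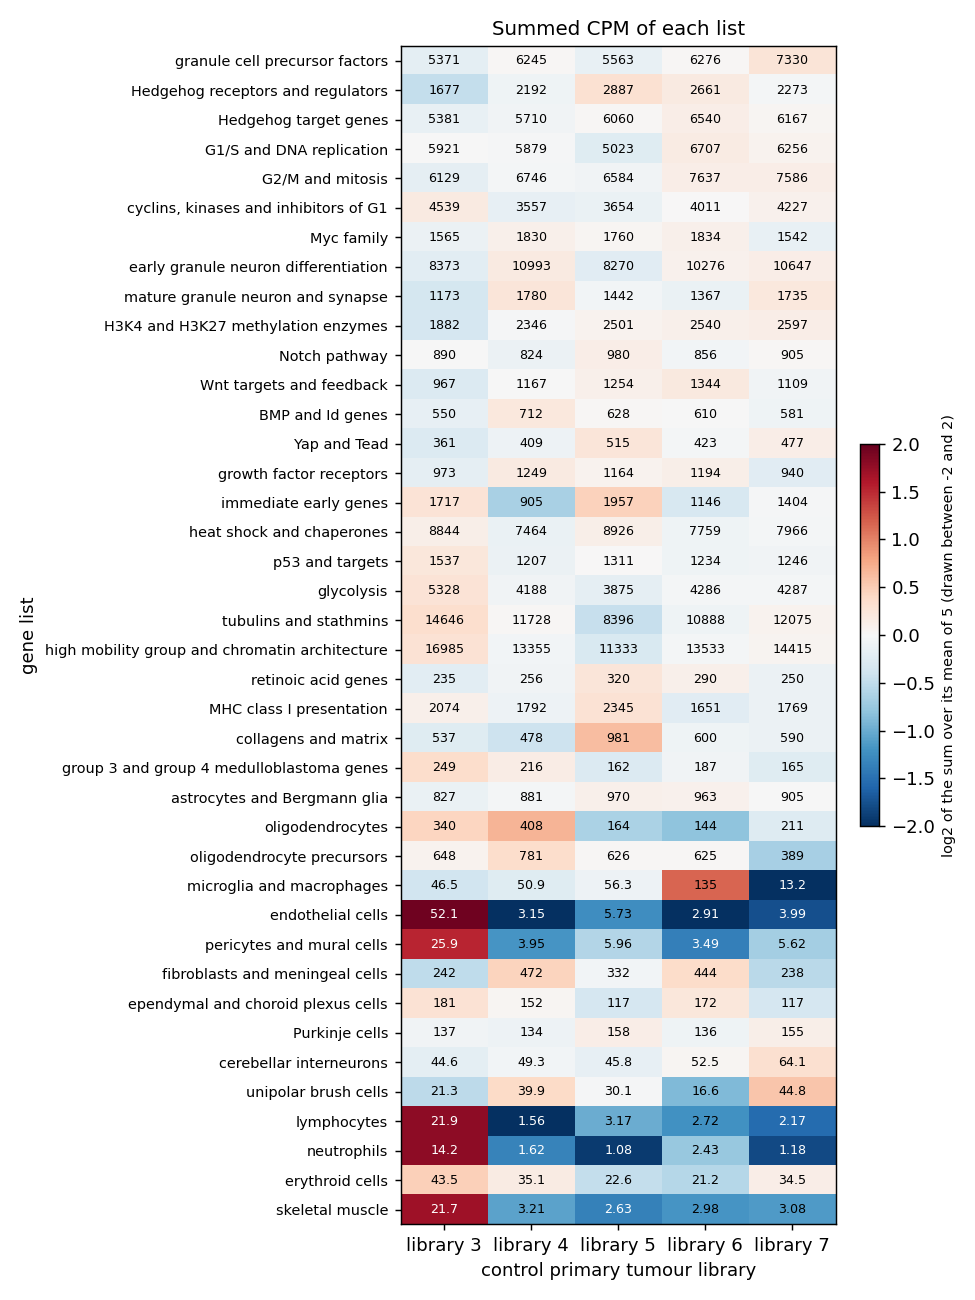
Summed CPM of each gene list (rows) in each of the 5 libraries (columns), printed in the cells and coloured by the log2 ratio to the mean of the 5, drawn between -2 and 2. Cell cycle and precursor lists are near white, endothelial, mural, lymphocyte, neutrophil and muscle lists are red in library 3, and microglial genes are red in library 6.

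Over 11259 genes with a mean of at least 5 CPM, the median SD of log2(CPM + 0.5) was 0.295, and counting error alone gives a median of 0.039. Without library 3 the median was 0.181 over 11178 genes. Genes with an SD under 0.2 were 2900 (25.8%) of all and 6261 (56.0%) without library 3. Genes with an SD above 1, called widely spread, were 168 (1.49%), and 162 (1.45%) without library 3, of which 126 were in both sets. The share was 4.33% between 5 and 20 CPM, 0.673% between 20 and 100 CPM and 0.286% from 100 CPM. The library farthest from the median of all 5 was library 3 for 39 of the 168, library 4 for 30, library 5 for 42, library 6 for 17 and library 7 for 40. Library 5 was mostly the high one (27 of 42) and library 7 mostly the low one (30 of 40). Genes with at least 10 CPM in 1 library and under 1 CPM in another, limits set after the values were seen, were 138, and 47 of these 138 met both limits without library 3.

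**Figure D4:**
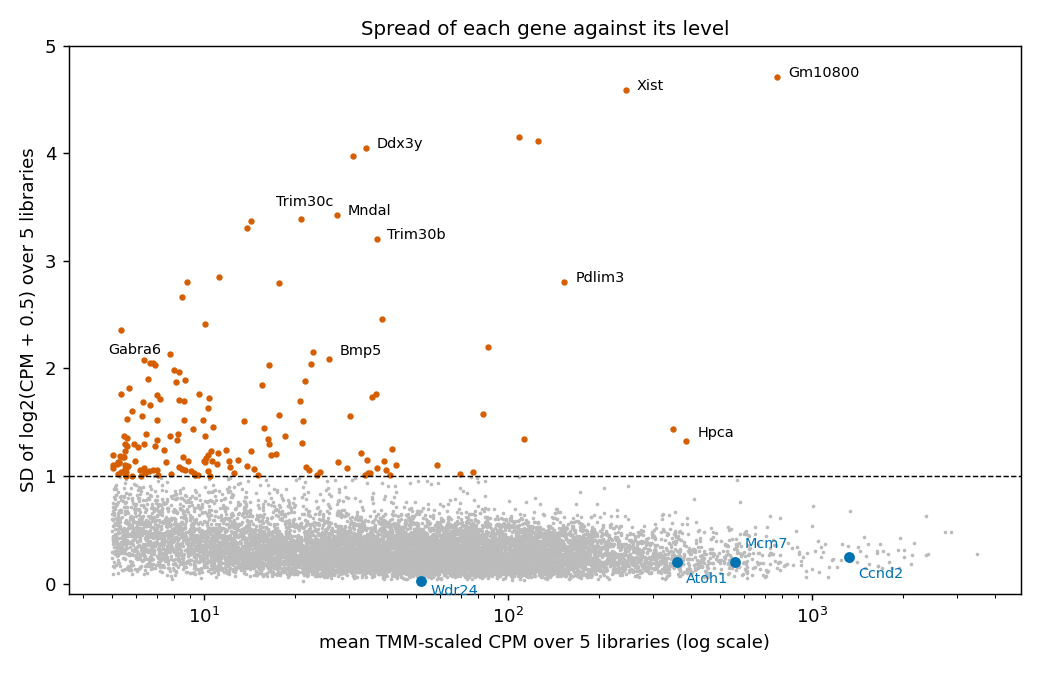
SD of log2(CPM + 0.5) over 5 libraries against mean CPM (log axis) for 11259 genes of at least 5 CPM. The 168 genes above the dashed line at 1 are in orange, most genes lie under it, and Atoh1, Ccnd2, Mcm7 and Wdr24 (blue) lie near the bottom.

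Among the 168 were 0 of 21 precursor factors, 0 of 35 G1/S genes and 0 of 34 mitotic genes of at least 5 CPM. The share of all genes was 1.49%, at which lists of this size hold few or none. These counts of 0 therefore do not set the lists apart. The mature granule neuron list had 4 of 25 (Gabra6, Slc17a7, Cbln3 and Grin2c), each with a mean between 5 and 20 CPM, where the share was 4.33%. With predicted and clone-named genes left out (Gm10800, at SD 4.71 through library 3, is one), the most spread genes were Xist (SD 4.59) and the Y-linked Ddx3y (4.05), Eif2s3y (59.5, 95.6, 0, 0 and 0 CPM), Kdm5d (27.6, 44, 0, 0 and 0 CPM) and Uty (20.2, 48.9, 0, 0 and 0.0268 CPM). Next to these, Mndal, an interferon-inducible gene of the Ifi200 family, was at 0.172, 53.8, 0.0387, 42.9 and 40.1 CPM. It was near 0 in libraries 3 and 5 and above 40 CPM in the other 3. Its neighbour on chromosome 1, Ifi203 (chosen after its values were seen), was at 2.41, 13, 0.0387, 6.14 and 5.09 CPM and low in library 5.

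A cluster of tripartite motif genes on chromosome 7, which act in antiviral defence, varied between tumours, with some members sharing a pattern and others not. Trim30c was at 5.68, 0, 0, 99 and 0 CPM, Trim30a at 5.34, 0.206, 0, 50.5 and 0.187 CPM and Trim6 at 5.21, 0.206, 0.193, 21 and 0.0268 CPM, all highest in library 6. Trim30b was at 2.45, 6.81, 94.9, 80.8 and 0.0268 CPM, high in libraries 5 and 6, and Trim12a (chosen after its values were seen) at 0.646, 28.7, 1.12, 0.928 and 0.348 CPM, high in library 4. On GRCm38 they lie between Trim6 (chr7:104218793-104235152) and Trim30a (chr7:104409025-104465193). Members of this family and of the Ifi200 family are near-identical copies, and reads split or dropped between copies make each value uncertain.

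Single regulatory and structural genes also differed. Pdlim3, a muscle and cytoskeletal LIM protein gene, was at 14.2, 3.66, 328, 273 and 149 CPM, high in the 3 libraries with Xist. It was picked for its spread, and a link with sex was not tested. Zdbf2, an imprinted gene, was at 11.9, 0.737, 64.2, 48.3 and 66.9 CPM, higher in the same 3 libraries and lowest in library 4. The processed pseudogenes Fau-ps2 (41.5, 0.236, 0.619, 0.0320 and 0.0803 CPM) and Rpsa-ps10 (116, 108, 63.4, 141 and 3.16 CPM) were also among the 15 of largest spread, and their reads cannot be told from those of the ribosomal parent genes. Leaving out library 3, Fau-ps2 was no longer widely spread, while the others named by this rule were.

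Other widely spread genes, chosen after their values were seen, include developmental regulators. Otx1, a homeobox gene, was at 2.80, 56.6, 46.7, 19.6 and 58.8 CPM, with library 3 low (SD 1.76, and 0.73 without library 3). Hpca, a neuronal calcium sensor gene, was at 316, 193, 916, 432 and 77 CPM, Lama5, a laminin chain, at 43.2, 45.7, 354, 86.9 and 36.6 CPM and Sema3f, an axon guidance cue, at 3.66, 2.74, 28.2, 4.48 and 2.01 CPM, all 3 highest in library 5. Slit1, a guidance cue, was highest in library 7 (7.19, 8.64, 3.71, 4.83 and 79.1 CPM). Some of these genes lie side by side. Bmp5 and its neighbour Hmgcll1 (5.51, 65, 11, 9.21 and 14.2 CPM) on chromosome 9 were both highest in library 4, and Col3a1 and Col5a2 (8.48, 2.83, 50.6, 20.8 and 23.2 CPM) on chromosome 1 were both widely spread. Of 143 widely spread genes with a position, 35 (24.5%) had another within 500 kb, against 897 of 10324 other genes of at least 5 CPM (8.69%). The 35 include the Y-linked genes, the Trim cluster, Mndal with Ifi203, Gm10800 with Gm10801 and mt-Atp6 with mt-Co3. The share without these sets was not computed, so 24.5% is not a measure of neighbours varying together in general.

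**Figure D5:**
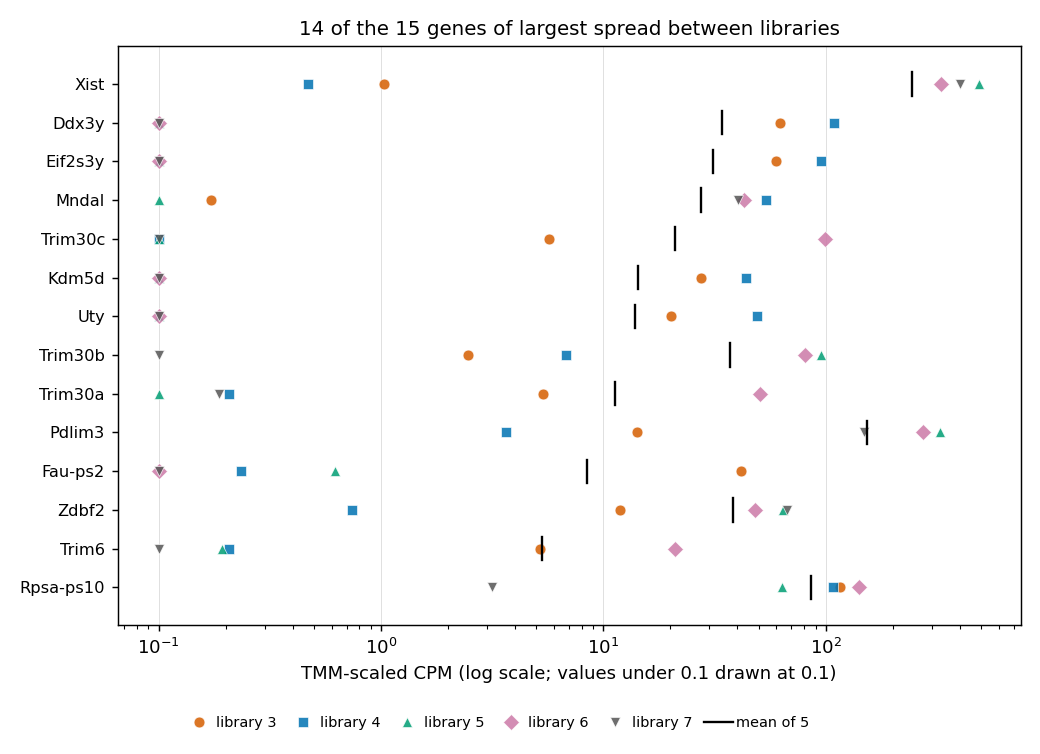
CPM (log axis, values under 0.1 drawn at 0.1) of 14 of the 15 genes of largest spread, 1 symbol per library and a bar at the mean of 5. Xist and the Y-linked genes split the libraries into 3 and 2, and Fau-ps2, Trim30c, Trim30a and Trim6 are high in 1 library.

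At the other end, the 10 genes of smallest spread among those of at least 50 CPM were Wdr24, Ppm1a, Actr8, Ppp2r3d, Fgf9, Sike1, Abhd12, Commd8, Ik and Hnrnph2. Wdr24, a subunit of a complex that controls mTORC1, was at 50.5, 53, 51.1, 52 and 52.5 CPM (SD 0.03, counting error 0.0370). Ppm1a, a protein phosphatase gene, was at 111, 113, 115, 110.2 and 117 CPM, and Fgf9, a growth factor gene, at 105, 109, 112, 113 and 110 CPM. The other 7 had SDs between 0.03 and 0.04. For Wdr24 the 5 values lay within a 1.05-fold range.

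The one labelled property that divides these libraries is the hemisphere, 2 left against 3 right. With edgeR's quasi-likelihood test and Benjamini-Hochberg adjustment, 0 of 19644 genes (0%) passed an adjusted p of 0.05, and 1160 had an unadjusted p under 0.05. The smallest adjusted p was 0.0638. DESeq2 called 66 genes, 26 higher and 40 lower in the left hemisphere. The genes of smallest p had groups that did not overlap, which picking by smallest p favours. The share of such genes among all 19644 was not computed. The zinc finger gene Zbed5 was at 8.91 and 9.51 CPM in the left libraries and 41.3, 38.2 and 40.7 CPM in the right ones, a log2 difference of -2.17 (SE 0.24, adjusted p = 0.0695 by edgeR). Rnaset2b, a ribonuclease gene with a near-identical copy, was at 0.818 and 0.723 CPM on the left and 11.5, 11.2 and 10.9 CPM on the right. The mitochondrial mt-Co3 was at 1.59 and 1.23 CPM on the left and 14.7, 16.7 and 17.8 CPM on the right, and these counts cannot be told from those of nuclear copies. These 3 genes were lower in both left libraries than in any right one and did not pass the test. Because library 3 is one of the 2 left libraries, its departure from the others enters this comparison directly: without library 7 it is the whole left arm, and 8112 of 28078 genes were called. The p-values measure the spread between these libraries, which may be partly technical.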

How the data were processed

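RNA from sorted GFP+ tumour cells was sequenced, and the deposited table gives raw read counts per gene symbol for 53653 genes. The build mm10 and the tools DESeq2, HTSeq 0.6.1 and STAR 2.4 are listed without roles, per the submitters' processing notes, for the work that the authors did before they deposited the counts. Neither annotation release nor strand setting was found in the labels, and reads of genes that overlap on opposite strands are therefore not separated. The 5 control libraries were grouped by their labels, and 42886 genes had a count in them. Counts were scaled with TMM in edgeR 4.0.16 (R 4.3.3). Exon lengths came from GENCODE release M21 (GRCm38), with 28697 symbols matched, and promoters from RefSeq. Spread was the SD of log2(CPM + 0.5) over genes of at least 5 CPM. The SD that counting error gives is from the counts' sizes, and without molecular identifiers it covers counting only.

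The hemispheres were compared with edgeR's quasi-likelihood test (filterByExpr, Benjamini-Hochberg adjustment, 2 against 3 libraries). DESeq2 1.42.0, other scalings, filters, pseudocounts, lengths and each library left out were alternatives. On simulated counts of 18930 genes for this comparison, 90% of 100 genes changed 4-fold and 98% of 100 changed 8-fold were recovered, with 13 false calls. Apart from the planted changes, the simulated libraries shared their mean levels and a spread set by level alone. They lack the departure of library 3, so these shares are not the power of the real comparison.

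Named genes were the 20 highest by TPM and by CPM, the 15 of largest SD (at least 5 CPM, predicted and clone-named genes left out) and the 10 of smallest SD (at least 50 CPM), all precursor and Hedgehog genes, and in each other list the 3 highest and the most spread. Xist, Y-linked genes and olfactory receptors were checks. The subject and the 40 lists (25 gene groups, 15 cell types) were chosen with earlier results of these data known. List symbols absent from the table were not analysed here, and some genes that these rules name are not reported here.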

Additional observations from a re-analysis of the deposited data

Results flagged for a closer look

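Among 261 named genes, 40 list sums and 6 library measures, 64 had 1 library whose gap to its nearest neighbour exceeded 0.71 of the whole range of the 5. Chance flags about 1 in 20 such groups. Library 3 was the one apart in 42 of the 64, on the high side in 40.

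In library 3 the number of genes with a count (40295) and the olfactory and vomeronasal receptor sum (1679 CPM) stood apart. So did the summed CPM of endothelial (52.1), mural (25.9), lymphocyte (21.9), neutrophil (14.2) and skeletal muscle (21.7) markers and of glycolysis genes (5328). Genes with low values in the other libraries that were high there, in CPM, were Calb1 at 4.56, Cdkn2a at 9.17, Cdon at 3.19, Col1a1 at 7.19, Gad2 at 5.34, Igf1 at 4.82, Lhx9 at 4.69, Lrp2 at 12.1, Meis2 at 9.17, Ms4a1 at 6.20, Myh11 at 7.41, Myh4 at 8.78, Nlrc5 at 5.90, Notch3 at 4.48, Pecam1 at 8.96, Ptprc at 9.73, Retnlg at 1.77, Tnc at 6.89 and Vwf at 17.0. The repeat, ribosomal and pseudogene entries Gm10800 (3812 CPM), Rn18s-rs5 (4536 CPM) and Fau-ps2 (41.5 CPM) were also high in it. Genes of higher level that were high in library 3 were Bax at 209.7, Cct5 at 732, Cdk1 at 332, Cdk4 at 1529.9, Cdkn1a at 145, Dpy30 at 148, H2afz at 1916, Hes6 at 198, Stmn3 at 561 and Ube2c at 416 CPM. The low ones were Bmi1 at 131 and Sufu at 90.8 CPM.

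Library 4 stood apart for Bmp5 (95.7 CPM), its neighbour Hmgcll1 (65.0 CPM), Trim12a (28.7 CPM) and Neurod1 (881 CPM). Library 5 did so for the summed matrix genes (981 CPM), Col3a1 (87.9 CPM), Lama5 (354 CPM), Mfap4 (133 CPM), Cyr61 (36.2 CPM), Sema3f (28.2 CPM), Fosb (10.02 CPM), Igf1r (108 CPM) and Hnrnpa2b1 (2283 CPM). Library 6 did so for Trim30c (99.0 CPM), Trim30a (50.5 CPM), Trim6 (20.99 CPM), Ttr (25.7 CPM) and C1qb (14.1 CPM). Library 7 did so for Slit1 (79.1 CPM), Foxf1 (2.54 CPM) and the precursor factors Sox11 (370.3 CPM) and Zic2 (40.3 CPM). Several of these genes were named because they are widely spread, so their number is no measure of how often libraries stand apart.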

How the results depend on the processing

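The count of genes at or above 1 CPM in all 5 libraries stayed within 1.5 times of 13073 under each alternative (10359 to 14544). The count of widely spread genes, 168, went to 96 with a pseudocount of 2, to 1097 with a minimum of 1 CPM and to 46 with one of 20 CPM, and lay between 149 and 211 with 1 library left out. The count of genes near off in 1 library and on in another fell from 138 to between 47 and 125 with 1 library left out, 47 being without library 3 (an alternative added after seeing the data). Of the 20 genes of highest TPM, 18 to 20 were shared with 1 library left out and 18 with the longest transcript as length. The hemisphere comparison called 0 genes with edgeR, 66 with DESeq2 and 643 of 42886 without a filter on low counts, and between 0 and 8112 with 1 library left out, 8112 being without library 7, where the lone left library 3 is assumed to vary like the right ones. No paired analysis was possible because the left and right libraries share no replicate number. List medians moved by more than their SD over libraries in 2 of 200 values with a library left out (granule cell precursor factors at 119 and glycolysis at 70.3 TPM without library 3) and in 8 of 40 with the longest transcript as length, and in 0 of 40 under each other scaling. Without library 3 the median of all genes of at least 1 CPM with a length rose too, from 26 to 28.1 TPM. Named gene means moved by more than 1 SD in 0 of 261 under each scaling, and leaving out 1 of 5 libraries cannot move a mean that far. Library 3 had the fewest counts and a shift with gene length, which limits levels compared between genes, and genes under the 3-count floor are not distinguishable from 0.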
